A study of Arabidopsis thaliana with 4 samples.

Results

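The regions described here are stretches of Arabidopsis chromosome arm that carried little or no CHH methylation in wild-type seedlings and more of it in seedlings of the ndx1-4 mutant, with no listed change in the other sequence contexts at the same place. CHH is a cytosine followed by 2 bases other than G, as opposed to the symmetric contexts CG and CHG. A region was taken when it was listed as differentially methylated in CHH, lay on chromosomes 1 to 5, had a higher level in ndx1-4 than in Col-0 and a Col-0 level below 0.06, and shared not even 1 bp with a listed CG or CHG region. Its midpoint also had to lie outside the centromere-proximal interval of its chromosome, which was 12.9 to 16.9 Mb on chromosome 1, 2.0 to 6.6 Mb on chromosome 2, 11.2 to 16.0 Mb on chromosome 3, 2.4 to 5.8 Mb on chromosome 4 and 10.1 to 14.4 Mb on chromosome 5. In all, 316 of the 7023 listed regions met these conditions (4.50%). They made up 39.8% of the 793 CHH-only gains on the arms and 23.7% of the 1332 CHH gains on chromosomes 1 to 5.

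Genomic DNA came from 14-day-old seedlings of 2 genotypes, the ndx1-4 mutant and the wild-type accession Col-0. NDX (NODULIN HOMEOBOX) is a plant homeobox protein, and ndx1-4 is a T-DNA insertion allele of its gene, so the mutant is represented by 1 allele. Each genotype had 2 bisulfite sequencing libraries sequenced with reads of 150 nt to a stated depth of 15 to 17 M raw reads. Bisulfite turns unmethylated cytosines into bases read as T, and the methylation level of a region is the fraction of cytosines still read as C. The levels are given as 1 mean per genotype with both libraries combined, so no spread between libraries can be set beside any level, the coverage behind a level is unknown, and no difference below was tested.

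In Arabidopsis, CHH methylation has no mirror-image cytosine on the opposite strand and has to be laid down anew after each replication. On the arms this is mainly the work of RNA-directed DNA methylation, in which small RNAs guide the methyltransferase DRM2 to short transposable elements and other repeats, often beside genes, whereas CMT2 acts mainly in long, heterochromatic elements. CHH levels are low in general, because a given cytosine is methylated in only a minority of molecules.

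The DNA of 4 of the regions is shown first, because they are among the 10 largest gains of the set. All sequences are the plus strand of the RefSeq copy of TAIR10.1, and capitals mark CHH cytosines, as C on the plus strand and as G where the cytosine is on the minus strand. The first lies 665 bp downstream of AT4G10925, a nuclear transport factor 2 family gene. It is AT-rich and holds 57 CHH cytosines in 244 bases, 29 on one strand and 28 on the other.
chr4:6701805-6702048: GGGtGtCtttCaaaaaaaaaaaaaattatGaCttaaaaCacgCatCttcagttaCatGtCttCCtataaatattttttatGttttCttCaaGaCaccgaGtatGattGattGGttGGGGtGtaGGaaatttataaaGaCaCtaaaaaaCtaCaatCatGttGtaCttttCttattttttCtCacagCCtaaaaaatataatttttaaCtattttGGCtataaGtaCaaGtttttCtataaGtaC
The second region lies wholly in an intron of AT1G14780, which encodes a protein with the pore-forming MAC/Perforin domain. It holds 50 CHH cytosines, of which 24 are on the plus strand.
chr1:5091780-5092004: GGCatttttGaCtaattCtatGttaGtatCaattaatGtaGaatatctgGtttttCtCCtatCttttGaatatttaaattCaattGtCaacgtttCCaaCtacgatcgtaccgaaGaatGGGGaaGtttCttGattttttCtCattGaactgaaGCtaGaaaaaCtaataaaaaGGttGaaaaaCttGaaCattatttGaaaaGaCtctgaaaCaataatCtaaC
The third is a stretch of 300 bases from a 332 bp region 3401 bp upstream of AT1G61667, a gene of the DUF538 family.
chr1:22763759-22764058: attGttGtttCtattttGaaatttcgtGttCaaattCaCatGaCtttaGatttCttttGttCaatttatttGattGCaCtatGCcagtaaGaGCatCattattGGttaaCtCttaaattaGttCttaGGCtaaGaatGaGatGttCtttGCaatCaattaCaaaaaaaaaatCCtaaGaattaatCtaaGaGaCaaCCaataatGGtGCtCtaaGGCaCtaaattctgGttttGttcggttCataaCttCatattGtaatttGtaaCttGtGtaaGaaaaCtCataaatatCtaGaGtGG
The fourth lies 207 bp upstream of AT3G28300 (AT14A), a gene of the DUF677 family. Its sequence is almost all A and T, it holds 7 CHH cytosines in 55 bases, and only 4 of them were counted in the level.
chr3:10565413-10565467: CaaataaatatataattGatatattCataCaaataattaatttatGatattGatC

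The level of the 316 regions in ndx1-4 had a lowest value of 0.0270, a median of 0.103 and a highest value of 0.304. In Col-0 the lowest level was 0.00336, the median 0.0306 and the highest 0.0593. The regions were chosen by these 2 levels, so the levels and their difference are a description. The difference, ndx1-4 minus Col-0 and called the gain below, had a median of 0.0679, with quartiles of 0.0549 and 0.0808. Most gains were therefore modest: 36 regions (11.4%) gained 0.1 or more, and 56 gained less than 0.05. A level of 0.1 or more was reached in ndx1-4 by 170 regions (53.8%), 0.15 or more by 25 and 0.2 or more by 7. As a ratio, the ndx1-4 level was a median 3.28 times the Col-0 level, and at least 4 times in 120 regions (38.0%).

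**Figure D1:**
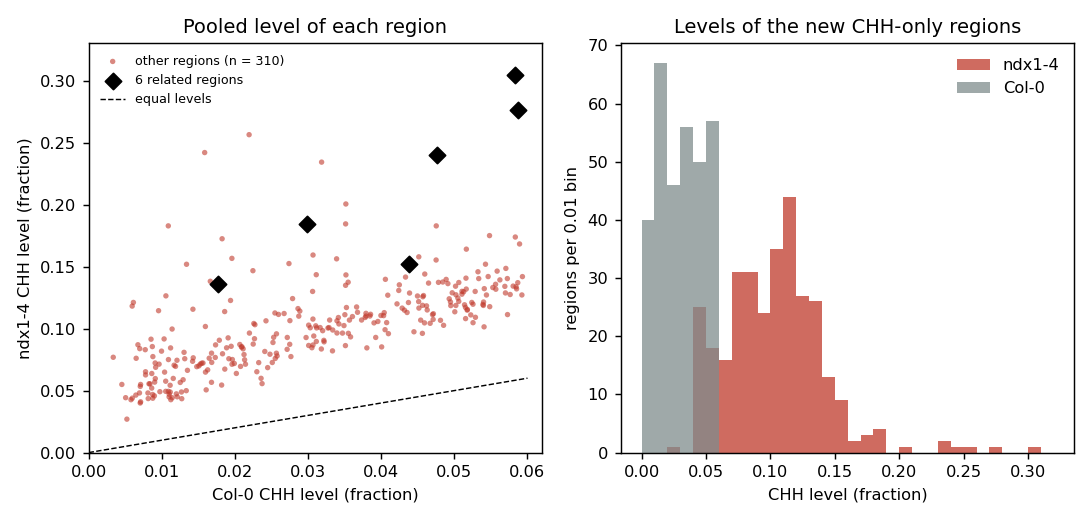
Pooled CHH methylation level of the 316 regions as a fraction. Left, the level in ndx1-4 (y axis) against Col-0 (x axis) for each region, with diamonds for the 6 regions that share a sequence and a dashed line at equal levels. Right, the number of regions per 0.01 of level in each genotype. The points form a band well above the dashed line, with a median of 0.103 in ndx1-4 and 0.0306 in Col-0, and only a few rise out of it.

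The ndx1-4 level followed the Col-0 level within the set. In the 107 regions with a Col-0 level under 0.02, the median was 0.0699 in ndx1-4 and the median gain 0.0554. The 102 regions between 0.02 and 0.04 in Col-0 had a median of 0.101 in ndx1-4 and a median gain of 0.0685. The 107 regions from 0.04 up to the limit had a median of 0.127 in ndx1-4 and a median gain of 0.0762. The regions that were emptiest in Col-0 thus gained least in absolute terms, while their median ratio was the highest of the 3 bands, at 5.76 against 3.19 and 2.50. Across the 316 regions the gain had a Spearman rho of 0.43 with the Col-0 level, 0.41 with region length and 0.33 with the number of cytosines counted. Each pair of measures comes from the same regions and libraries, the gain is computed from the Col-0 level, and the part of the listing thresholds was not tested, so these are descriptions. The rho was −0.08 with G+C content and −0.10 with the density of CHH cytosines.

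The limit of 0.06 cut through a continuous range of levels. The 3 regions just inside it had Col-0 levels of 0.0593, 0.0592 and 0.0589. They lie 2124 bp upstream of the boric acid channel gene NIP5;1, 922 bp upstream of AT4G09520 and 337 bp downstream of AT4G19250, and their ndx1-4 levels were 0.142, 0.127 and 0.168. The 3 just outside had Col-0 levels of 0.0601, 0.0601 and 0.0602 and ndx1-4 levels of 0.130, 0.127 and 0.134. They lie in an intron of the F-box gene AT1G80960, 2216 bp downstream of the histone H3 gene HTR11 and 810 bp downstream of GRF11, a 14-3-3 protein gene. Regions on either side of the limit were alike in level. For the whole sets, the 477 CHH-only arm gains above the limit, called reinforced regions below, had a median level of 0.215 in ndx1-4 and 0.116 in Col-0. The 515 CHH-only arm regions that were lower in ndx1-4, called losses below, had a median of 0.0748 in ndx1-4 and 0.161 in Col-0.

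The regions had a median length of 158 bp (52 to 624 bp) and a median of 38 CHH cytosines (4 to 147). In 276 of them (87.3%), every CHH cytosine of the reference sequence had been counted. A level resting on few cytosines was rare, with 11 regions holding fewer than 15. All 5 chromosomes carried them, with 87 on chromosome 1, 68 on chromosome 2, 39 on chromosome 3, 56 on chromosome 4 and 66 on chromosome 5. Per Mb of arm the number was 4.50 on chromosome 2, the highest, and 2.09 on chromosome 3, the lowest. The median gain by chromosome lay within 0.0643 and 0.0724, a narrow range beside the quartiles of the whole set.

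Most of the regions lay beside protein-coding genes rather than in them. Of the 316, 68 (21.5%) overlapped a protein-coding gene, and 174 (55.1%) were outside such genes but within 1 kb of one. Counted once by class, 85 lay in an upstream flank only, 48 in a downstream flank only and 31 in both kinds of flank, 11 (3.5%) overlapped a pseudogene and 9 (2.8%) an RNA gene, and 64 (20.3%) lay farther than 1 kb from a protein-coding gene and in neither of these. When the arms were cut into 620521 tiles of 158 bp, 66.2% of tiles overlapped a protein-coding gene and 20.2% lay only in a flank. The share in genes was lower in the new regions than in the tiles, and the share in flanks higher. The flank share also depends on how many regions lie in genes, and outside genes the contrast was much smaller. Of the 248 new regions outside protein-coding genes, 70.2% lay within 1 kb of one. The share was 60.7% of 6640 windows of 158 bp outside such genes, placed every 5 kb along the arms. The reinforced regions had 13.8% in genes and 52.6% in flanks only, and the losses 20.4% and 29.9%. Pseudogenes, which in this annotation include many transposon remnants, held 17.9% of the losses when regions are counted once, against 3.5% of the new regions and 4.4% of the reinforced regions. A pseudogene overlapped 3.54% of the tiles, so the share of the new regions was that of the arms at large.

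**Figure D2:**
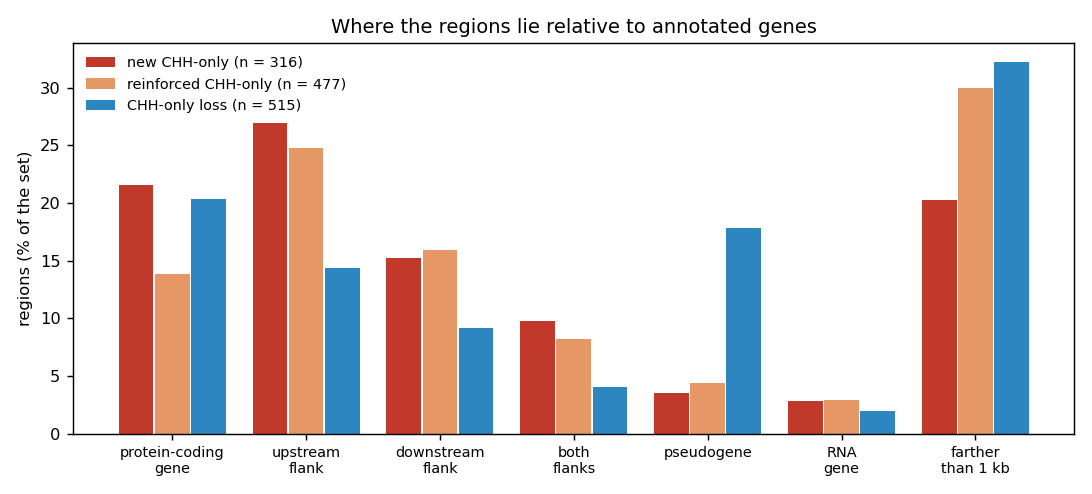
Share of each set of regions (y axis, % of the set) by position relative to annotated genes (x axis), for the new CHH-only regions, the reinforced CHH-only regions and the CHH-only losses. The upstream flank is the most common class of the new regions (26.9%), while the losses have a larger share in pseudogenes (17.9% against 3.5%) and smaller shares in all 3 flank classes.

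Many of the new regions lay in front of gene starts. The midpoint of 129 new regions (40.8%) lay within 1 kb before the nearest start of a protein-coding gene, and that of 35 (11.1%) within 1 kb after it. Among 19608 windows of 158 bp placed every 5 kb along the arms, these shares were 21.3% before and 24.8% after. The fullest stretch was 500 to 250 bp before the start, with 45 regions (14.2%) against 5.53% of the windows. The reinforced regions had nearly the same profile, with 36.9% before and 7.55% after the start. The losses had 20.8% before and 11.7% after, without such a peak. The contrast with the windows was much smaller once protein-coding genes were set aside, since many windows lie inside genes. Of the 248 new regions that overlapped no protein-coding gene, 162 (65.3%) lay on the upstream side of the nearest one, compared with 61.5% of the 6640 windows outside such genes. The midpoint of 116 of the 248 (46.8%) lay within 1 kb before a start, against 38.9% of the reinforced regions, 23.7% of the losses and 40.3% of the windows outside genes. The shares of 65.3% and 46.8% were thus close to those of the windows. The stretch 500 to 250 bp before a start held 43 of the 248 (17.3%), against 14.6% of the reinforced regions, 6.83% of the losses and 12.0% of the windows outside genes. The median distance of the 248 to the nearest protein-coding gene was 545.5 bp, against 790 bp in the reinforced regions, 1397.5 bp in the losses and 730 bp in the windows.

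**Figure D3:**
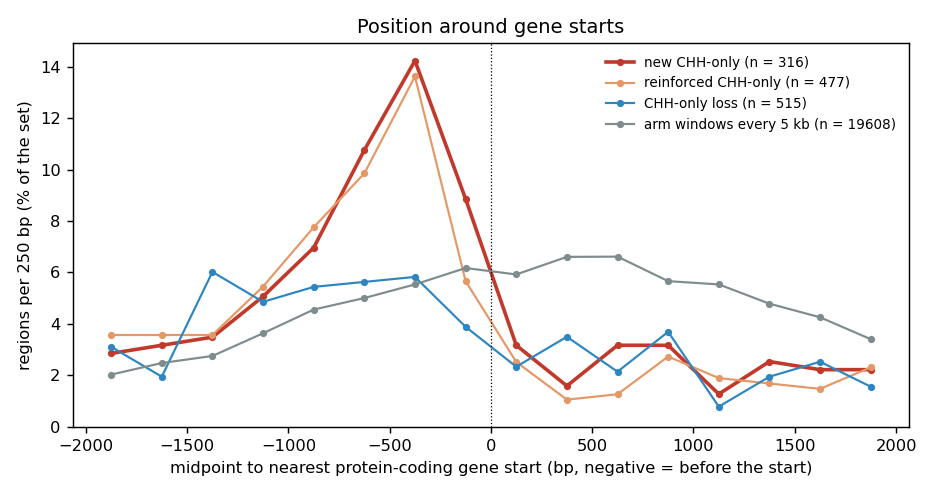
Distance from a region's midpoint to the nearest protein-coding gene start (x axis, bp, negative before the start) and the share of each set per 250 bp (y axis, % of the set). The new and reinforced regions peak 500 to 250 bp before the start (14.2% in the new regions), where windows placed every 5 kb, many of them inside genes, stay at 5.53%. Outside protein-coding genes, this stretch held 17.3% of the new regions and 12.0% of the windows (not drawn).

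Within genes, the new regions touched every part. Coding sequence was present in 29 of them (9.18% of the 316), untranslated exons in 29 (9.18%) and introns in 31 (9.81%). Wholly in coding sequence lay 10, and wholly in introns 13. The reinforced regions had coding sequence in 5.03%, untranslated exons in 5.66% and introns in 6.29%. The losses had 12.8%, 5.83% and 8.16% in the same order. These shares were not computed for the arm tiles, so the counts are a description. The 68 regions in genes had a median level of 0.0895 in ndx1-4 and 0.0204 in Col-0, and the 85 in upstream flanks had 0.112 in ndx1-4 and 0.0352 in Col-0. The median gains were close, at 0.0663 in genes and 0.0694 in upstream flanks. The highest ratio of all, 22.9, belonged to a region in the coding sequence of AT1G63870 at chr1:23709060-23709140, named after its values were seen, with a level of 0.0769 in ndx1-4 and 0.00336 in Col-0. At levels this low a high ratio stands for a small difference, here 0.0735. The region also had 8 copies of at least 80% identity, the best at 87.0%, and how reads were placed among them was not tested.

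In all, 325 genes had a new region in them or within 1 kb, and nearly all had a single one. The exceptions were AT1G70380 (an F-box gene), AT4G09500 (a UDP-glycosyltransferase), AT5G40020 (a thaumatin-family gene) and AT5G54140 (ILL3, an amidohydrolase of the family that releases auxin from its amino acid conjugates), with 2 each. No gene had 3 or more.

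Few genes that make, maintain or remove CHH methylation had a new region nearby, and few genes of any kind did. Within 2 kb, 2 of the 48 genes of the lists (4.17%) had one, against 487 of the 27444 protein-coding genes on chromosomes 1 to 5 (1.77%), so these counts are no result about the lists. Both totals include genes inside the centromere-proximal intervals, where the rule allowed no region. Among the listed genes, DCL3, CLSY1 and QQS lie there. Of 23 genes of RNA-directed DNA methylation, 1 had a region within 2 kb, HEN1, which encodes the methyltransferase that protects the ends of small RNAs. That region, at chr4:11191748-11191870 and 625 bp upstream of the gene, had a level of 0.113 in ndx1-4 and 0.0404 in Col-0, and 4 near copies elsewhere. None of 9 genes of maintenance methylation and chromatin, 4 DNA demethylase genes, or 4 genes comprising NDX and its partners had a region within 2 kb. Of 8 genes known as targets of DNA methylation, 1 had a region within that distance, the imprinted MADS-box gene PHE1. The region lay 1594 bp beyond the downstream end of PHE1, at chr1:24264439-24264663, nearer to CBSX6, and had a level of 0.114 in ndx1-4 and 0.0289 in Col-0. It lay farther than 1 kb from any protein-coding gene.

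The largest gains belonged to a few well-separated places. The region downstream of AT4G10925 printed first had a level of 0.256 in ndx1-4 and 0.0219 in Col-0, a gain of 0.234. At chr2:18862442-18862496, where an untranslated exon meets an intron in the DEAD-box RNA helicase gene AT2G45810, the level was 0.242 in ndx1-4 and 0.0159 in Col-0 over 15 cytosines. Upstream of AT14A the level was 0.234 in ndx1-4 and 0.0318 in Col-0. This value rests on 4 cytosines of an AT-rich sequence with 58 near copies, the best of them 100% identical, and how reads were placed among them was not tested. The intronic region of AT1G14780 had a level of 0.183 in ndx1-4 and 0.0109 in Col-0, a ratio of 16.8. In AT4G21903, a gene of the MATE family of efflux transporters, the region chr4:11624379-11624628 overlapped an untranslated exon and had a level of 0.200 in ndx1-4 and 0.0352 in Col-0. The region far upstream of AT1G61667 had 0.172 in ndx1-4 and 0.0182 in Col-0 over 84 cytosines. At these places the ndx1-4 level was between 5.70 and 16.8 times that of Col-0.

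In 3 other long regions the level rested on many cytosines. Their gains were 0.108, 0.125 and 0.0632 in the order below, the last of them under the median of the set. At chr4:8715547-8716030, 167 bp downstream of the UDP-glycosyltransferase gene AT4G15260, the level was 0.155 in ndx1-4 and 0.0475 in Col-0 over 117 cytosines. At chr4:10630599-10630964, 166 bp downstream of AT4G19500, annotated as a nucleotide-binding receptor protein, it was 0.152 in ndx1-4 and 0.0274 in Col-0 over 102 cytosines. At chr5:19567483-19567942, in the coding and intronic sequence and flank of AT5G48280, it was 0.0940 in ndx1-4 and 0.0308 in Col-0 over 117 cytosines.

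Few of the new regions had a listed change in another context close by. The rule had removed every region that overlapped one. How often arm windows lie as near to one was not computed, so these distances are a description and no trait of the set. The nearest CG or CHG region was a median 11663 bp away, and 18 of the 316 regions (5.7%) had one within 500 bp. Within 2 kb there were 45 such regions, for 39 of which the nearest was a CG region. These neighbours had no common direction, being higher in ndx1-4 in 19 cases and lower in 26. Another CHH region lay within 2 kb of 44 new regions, and the nearest was higher in ndx1-4 in 25 and lower in 19. Most new regions thus had no listed neighbour within 2 kb (44 of 316, or 13.9%, with a CHH neighbour), as was the case for the reinforced regions (62 of 477, or 13.0%). Of the 515 losses, 141 (27.4%) had another CHH region within 2 kb, which was higher in ndx1-4 in 34 cases. A CG or CHG region within 500 bp was about as rare in the other sets, at 8.6% of the reinforced regions and 6.2% of the losses.

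The DNA of the new regions was AT-rich. Their median G+C content was 29.8%, against 31.0% in the reinforced regions, 35.9% in the losses and 36.1% in the arm tiles. CHH cytosines were slightly sparser than in the tiles, with 24.5 against 25.9 per 100 bp. Cytosines in CAA and CTA, the trinucleotides that CMT2 prefers, made up a median 32.4% of the CHH cytosines, against 31.0% in the reinforced regions, 26.9% in the losses and 28.2% in the tiles. A median 31.6% of the bases of a new region were soft-masked by RefSeq as repetitive or of low complexity, against 34.4% in the reinforced regions, 22.9% in the losses and 13.9% in the tiles. Flanks of genes are AT-rich in general, and the part of position in these values was not tested.

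Near copies were less common in the new regions than in the other CHH-only sets, though not than in the arms at large. A near copy elsewhere in the genome, of at least 80% identity over at least 80% of the region, was found for 85 of them (26.9%), against 54.1% of the reinforced regions, 67.0% of the losses and 16.0% of 1960 windows of 158 bp placed every 50 kb along the arms. Copies of 95% identity or more were found for 30 (9.5%), against 25.8% and 35.1%. As for highly repeated sequence, 17 (5.4%) had 10 or more near copies, against 24.5% and 23.3%. Those with copies had a median of 3 and at most 550, and 44 of the 85 (51.8%) had a copy in a centromere-proximal interval. The share with a centromere-proximal copy was not computed for the other sets or the windows, so it is a description. Having a copy made little difference to the values, with a median gain of 0.0675 in regions with a copy and 0.0685 in those without. Shorter matches of at least 50 bp and 80% identity were found for 181 new regions (57.3%), against 77.1% of the reinforced regions, 79.4% of the losses and 28.2% of the windows. The new regions were longer than the others (median 158 bp, against 139 bp and 124 bp), and a match over 80% of a longer region asks for more matching bases. Soft-masking did not give the same order, with at least 50% of the bases masked in 24.1% of the new regions, 29.8% of the reinforced regions and 23.1% of the losses. Among the arm tiles this share was 9.48%.

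**Figure D4:**
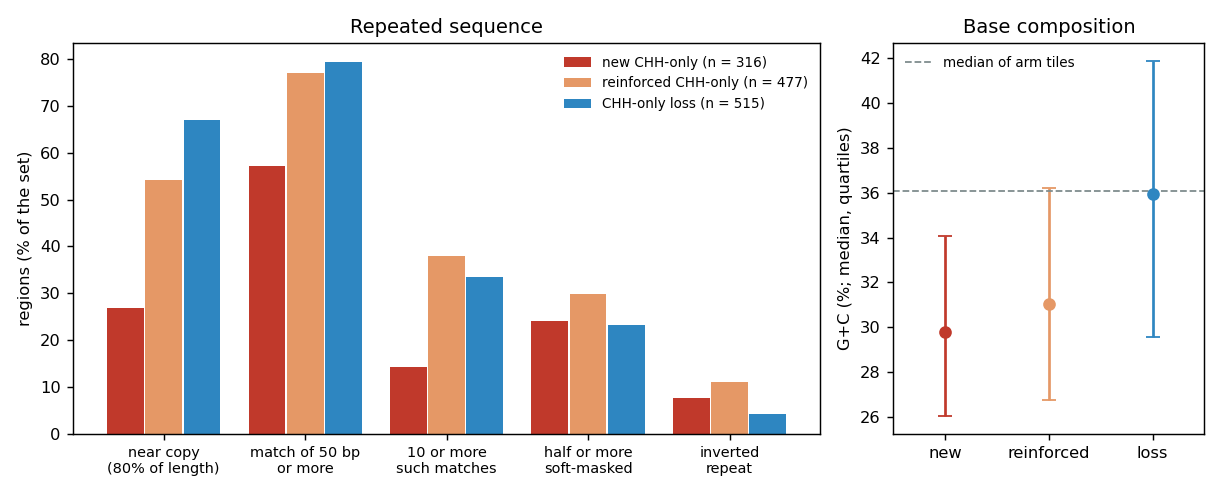
Left, share of each set (y axis, % of the set) with a near copy over 80% of its length, a match of 50 bp or more, 10 or more such matches, 50% or more of its bases soft-masked, or an inverted repeat in 500 bp around its midpoint (x axis). Right, G+C content with points at medians and bars at quartiles, and the median of arm tiles as a dashed line. The new regions have near copies least often (26.9%, against 54.1% and 67.0%) and the lowest median G+C content (29.8%).

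Sequences that can pair with themselves, a hallmark of miniature inverted-repeat transposable elements, were also looked for, in 500 bp around each midpoint. A repeat found there may lie outside the region itself. An inverted repeat with an alignment score of 20 or more was present in these 500 bp for 24 new regions (7.59%). The shares were 11.1% of the reinforced regions, 4.27% of the losses and 1.50% of 3922 windows placed every 25 kb along the arms. Median G+C content of these windows was 28.8%, 29.2%, 34.2% and 36.4% in the same order, and AT-rich sequence pairs with itself more easily, so that the part of base composition was not tested. The 24 regions had a median gain of 0.0810, against 0.0677 in the other 292, and were also longer, with a median of 203.5 bp against 156 bp. The region upstream of AT1G61667 is an example. Within it, chr1:22763848-22763970 is a stretch of 123 bases whose ends match each other on opposite strands at 22 of 25 positions, shown here with capitals throughout for the paired arms.
left end of chr1:22763848-22763970: AGAGCATCATTATTGGTTAACTCTT
right end, reverse complement: AGAGCACCATTATTGGTTGTCTCTT

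Comparing the regions with each other gave 10 groups of related sequence that together held 27 of the 316 (8.54%). Such groups were no trait of the new regions. The reinforced regions gave 31 groups with 92 of 477 regions (19.3%), the largest of 9. The losses gave 23 groups with 67 of 515 regions (13.0%), the largest of 8. The share among arm windows was not computed. In the new regions the largest group had 6 regions on 4 chromosomes, and it was found after the values had been seen. All 6 share the stretch below, printed in the orientation of the first, with capitals for bases identical to the first in the alignment. It is shown because 4 of the 10 largest gains of the whole set belong to this group.
chr1:42297-42396: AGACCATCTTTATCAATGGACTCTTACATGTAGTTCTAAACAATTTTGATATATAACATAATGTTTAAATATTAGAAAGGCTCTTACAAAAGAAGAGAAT
chr2:8371284-8371383: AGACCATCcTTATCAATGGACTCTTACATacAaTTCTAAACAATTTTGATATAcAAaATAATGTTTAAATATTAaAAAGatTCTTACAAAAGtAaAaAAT
chr2:14386779-14386878: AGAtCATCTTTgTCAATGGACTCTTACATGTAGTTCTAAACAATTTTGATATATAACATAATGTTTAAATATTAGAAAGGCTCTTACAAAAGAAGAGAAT
chr2:17788502-17788601, minus strand: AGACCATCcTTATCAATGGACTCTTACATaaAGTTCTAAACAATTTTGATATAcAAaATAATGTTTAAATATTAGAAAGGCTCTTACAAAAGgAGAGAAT
chr3:21601814-21601906, minus strand: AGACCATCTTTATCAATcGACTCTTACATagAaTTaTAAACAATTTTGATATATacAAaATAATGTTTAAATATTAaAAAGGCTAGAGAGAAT
chr5:16100951-16101050: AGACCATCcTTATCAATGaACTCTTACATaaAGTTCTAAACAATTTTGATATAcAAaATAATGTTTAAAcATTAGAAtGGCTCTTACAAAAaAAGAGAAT
Identity to the first was 88% in the second, 98% in the third, 94% in the fourth, 90.3% in the fifth, which is 93 bases long, and 91% in the sixth. It is taken over each sequence's own bases. Bases of the first that are missing from the fifth are therefore not counted against it, and its value cannot be ranked with the others.

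These 6 regions lie beside unrelated genes. The region with the largest gain of all 316 lies at chr2:14386585-14387208, between and partly within the peroxidase gene AT2G34060 and its neighbour AT2G34070, and is also the longest at 624 bp. Its level was 0.304 in ndx1-4 and 0.0583 in Col-0, a gain of 0.246. At chr2:17788288-17788746, overlapping AT2G42725, annotated as a transcription factor, the level was 0.276 in ndx1-4 and 0.0588 in Col-0. At chr1:42194-42604, 1177 bp upstream of UMAMIT28 (AT1G01070), of a family of amino acid transporters, it was 0.240 in ndx1-4 and 0.0476 in Col-0. At these 3 places the level in ndx1-4 was above that of nearly every other new region. At chr2:8371184-8371432, 76 bp upstream of the uncharacterized gene AT2G19320, it was 0.185 in ndx1-4 and 0.0299 in Col-0. At chr3:21601587-21602002, 253 bp upstream of AT3G58390, of the translation release factor family eRF1, it was 0.152 in ndx1-4 and 0.0439 in Col-0. At chr5:16100837-16101185, 158 bp upstream of ERA1 (AT5G40280), the farnesyltransferase subunit gene whose loss makes plants hypersensitive to abscisic acid, it was 0.136 in ndx1-4 and 0.0177 in Col-0. The group's median gain was 0.173, against 0.0678 in the other 310 regions, and its lowest, 0.108, ranked 31 among all 316. The 6 regions were also long, with a median of 413.5 bp against 157 bp in the others.

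Related sequence was found at 25 further places of the genome, most of them shorter. Only matches a short gap apart were joined, and several places lie near each other, such as those starting at chr1:24917598 and chr1:24918432. The 25 places may therefore not be separate copies. A listed CHH region lay at 4 of these, all higher in ndx1-4, with levels of 0.183 to 0.264 in ndx1-4 and 0.0659 to 0.159 in Col-0. These are gains from a Col-0 level above the limit of 0.06. The other 21 places had no listed CHH region. At none of the 25 was a CG or CHG region listed, which the selection had fixed only for the 6 regions themselves. How often arm windows this short hold a listed region was not computed, so nothing is concluded from these counts. Since changes below the listing thresholds are not in the table, a place without a region may still have changed.

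**Figure D5:**
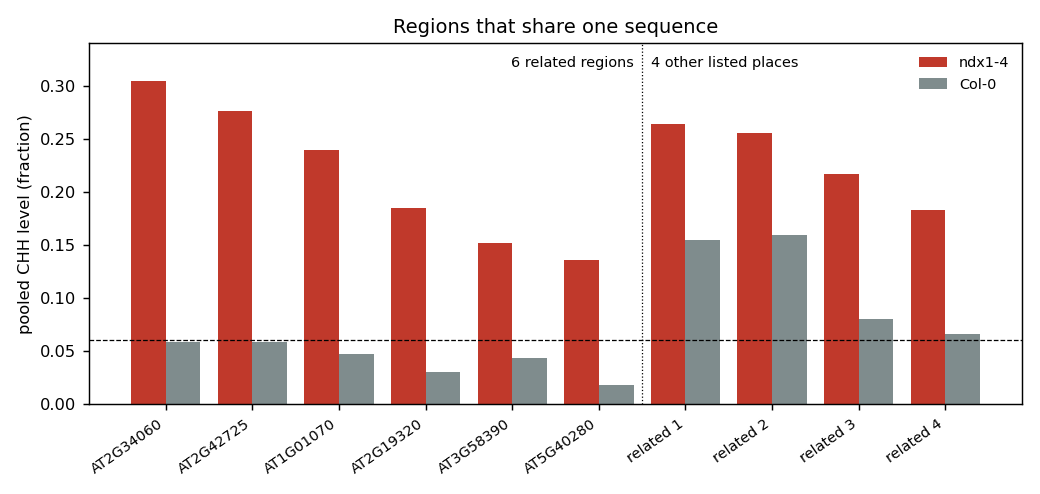
Pooled CHH level (y axis, fraction) in ndx1-4 (red) and Col-0 (grey) at the 6 new regions that share one sequence, named by their nearest gene, and at the 4 other listed places with related sequence (x axis). The dashed line marks the Col-0 limit of 0.06, and no error bars can be drawn because each level is 1 mean over 2 libraries. The ndx1-4 bar is the higher one at all 10 places, from 0.136 to 0.304.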

How the data were processed

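The authors sequenced bisulfite-treated DNA and deposited a table of differentially methylated regions with the mean level of each genotype as a fraction from 0 to 1, both libraries combined. The submitters' processing notes name Bismark and genome build TAIR10. The region caller, its thresholds and the coverage are not given in the sources used here. Per-context lists, the authors' difference and the area statistic hold the authors' own comparison and were not used. The difference was computed from the 2 levels.

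Coordinates were checked against RefSeq TAIR10.1. Both ends of 100% of the 3177 CHH regions on chromosomes 1 to 5 fell on a CHH cytosine. Genes, G+C content and soft-masking came from that reference. Near copies were found with blastn 2.17.0 (e-value at most 1e-05), and inverted repeats by local alignment of each 500 bp window with its reverse complement (Biopython 1.88, match 1, mismatch −1, gap opening −3, gap extension −1). The helper functions were tested on simulated data. Tables were handled with pandas 2.3.3.

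The regions, gene lists and named regions were chosen with earlier results of these data known. Named regions were the 10 with the largest gain, the 10 with the largest gain times number of cytosines, the 3 longest, 3 on each side of the Col-0 limit and those within 2 kb of a listed gene. The related-sequence groups, inverted repeats and shares over all genes and arm windows were added after values had been seen. Whether the 2 libraries of a genotype came from separate cultures is not stated.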

Additional observations from a re-analysis of the deposited data

How the results depend on the processing

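Of 68 alternative values, 50 stayed and 18 moved, where a count stays within 1.5 times and a median or share within its 95% interval over regions. Regions are not replicates, so the interval is only a yardstick and the tally measures no reproducibility between libraries. Another Col-0 limit or a minimum gain selects on the levels themselves, so changes in count, gain and level were built into those alternatives. A Col-0 limit of 0.04 left 209 regions, with a median gain of 0.0625 and a median ndx1-4 level of 0.0845. A limit of 0.08 gave 420 regions, a median gain of 0.0716 and a median ndx1-4 level of 0.117. A gain of at least 0.1 left 36 regions with a median gain of 0.122, a median ndx1-4 level of 0.157, 27.8% in protein-coding genes, 0 in pseudogenes and a median distance of 20610 bp to the nearest CG or CHG region. At least 38 cytosines left 160 regions with a median gain of 0.0735, a median ndx1-4 level of 0.108 and 25.6 CHH cytosines per 100 bp. A flank of 2 kb held 67.7% of the regions. Near copies were found for 15.5% at 90% identity and for 45.9% over 50% of the length. Leaving out the 6 related regions, an alternative chosen after seeing the data, gave a median gain of 0.0678 and a median ndx1-4 level of 0.103. No paired analysis was possible because the files give 1 pooled level per genotype, and for the same reason no library could be left out in turn. No value has an error between libraries, and low levels in few cytosines are the least certain, since coverage and conversion rate are unknown.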

Other observations

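The smaller groups of related sequence were also looked through after their values had been seen. In one pair, both regions lie upstream of genes annotated as molybdopterin-binding aldehyde oxidase or xanthine dehydrogenase. The region 117 bp upstream of AT3G04390 had a level of 0.138 in ndx1-4 and 0.0166 in Col-0, and the region 205 bp upstream of AT4G37500 had 0.174 in ndx1-4 and 0.0583 in Col-0. In another pair, 1 region lies 883 bp downstream of MYB90, a regulator of anthocyanin synthesis, with 0.102 in ndx1-4 and 0.0311 in Col-0. Its partner lies 90 bp upstream of AT5G45740, a ubiquitin-domain gene, with 0.156 in ndx1-4 and 0.0339 in Col-0. The pair after that joins a region 215 bp upstream of IPT6, an isopentenyltransferase gene of the cytokinin pathway, with 0.0714 in ndx1-4 and 0.0153 in Col-0, and a region in an RNA gene near AT5G04670, with 0.0757 in ndx1-4 and 0.0131 in Col-0. These pairs had gains of 0.0561 to 0.122, below the median of the 6-region group.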
